A study of Monopterus albus with 2 samples.

Results

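The regions described here were long peaks of H2bK120ub in ovary that met no peak in testis. H2bK120ub is histone H2b carrying a single ubiquitin at lysine 120, and a peak is a stretch of a genome scaffold called as enriched in the DNA precipitated with an antibody to this mark. A region was chosen if its ovary peak was at least 1000 bp long and overlapped no testis peak by 1 bp or more, on a scaffold with at least 1 peak in both lists. Of 38382 long ovary peaks on these scaffolds, 2486 met the rule, or 6.48%, and they are called ovary-only long peaks below. The other 35896 long ovary peaks overlapped a testis peak and are called shared long peaks.

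The study compared chromatin of adult, untreated ovary with that of adult, untreated testis of the swamp eel *Monopterus albus*, a fish in which the gonad of an individual turns from ovary into testis. Each tissue had 1 sample, precipitated with a rabbit antibody to H2b ubiquityl-lysine 120, and the authors deposited 1 peak list for each. There were no replicates, so every difference below describes these 2 lists, has no replicate error and was not tested. The lists hold positions and a score but no reads, so the sequencing depth behind a peak or behind the absence of one is unknown, and the number of peaks does not measure the amount of the mark in a tissue. The paper reports little of the mark in ovary by mass spectrometry and western blot, and no signal there by immunofluorescence.

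Ubiquitin is attached to this lysine, or to its counterpart in yeast, by an E2 and E3 enzyme pair of the Rad6 and Bre1 families and removed by deubiquitinases, among them one in the SAGA complex. The mark follows transcribing RNA polymerase II, so it lies over the bodies of transcribed genes, where it loosens chromatin and is needed for some methyl marks on histone H3. A gonad holds germ cells and several kinds of somatic cells, and in bulk tissue fewer cells that carry the mark at a place and less of the mark per cell cannot be told apart. No gene could be assigned to the regions, because the gene table used here does not place genes on the scaffolds named in the lists, and no sequence of them was read.

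The rule selected on length and on the testis list, so those values are a description. The 2 lists shared 1780 scaffolds, where the median length was 309 bp over 293354 ovary peaks and 341 bp over 283304 testis peaks. Ovary peaks covered 22.8% and testis peaks 24.1% of the 645.5 Mb between the first and the last peak of these scaffolds. Of ovary peaks of any length, 38.8% overlapped no testis peak, and this share was lower the longer the peak. It was 65.3% for ovary peaks under 100 bp and 15.0% from 750 bp to under 1 kb. In the 4 classes of long ovary peaks it was 10.5% under 1.25 kb (1337 of 12746), 7.13% from 1.25 kb to under 1.5 kb (575 of 8066), 4.51% from 1.5 kb to under 2 kb (405 of 8982) and 1.97% from 2 kb (169 of 8588). At 3000 bp or more, 17 of 2139 ovary peaks met no testis peak, or 0.795%. Testis peaks showed the same fall with length, from 68.8% without an ovary peak under 100 bp to 0.574% at 3000 bp or more. Over all lengths 39.9% of testis peaks overlapped no ovary peak, and among 42925 long testis peaks 2732 did, or 6.36%. The shares of the 2 lists were therefore close at each length above 1000 bp, and most peaks without a counterpart were short.

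**Figure D1:**
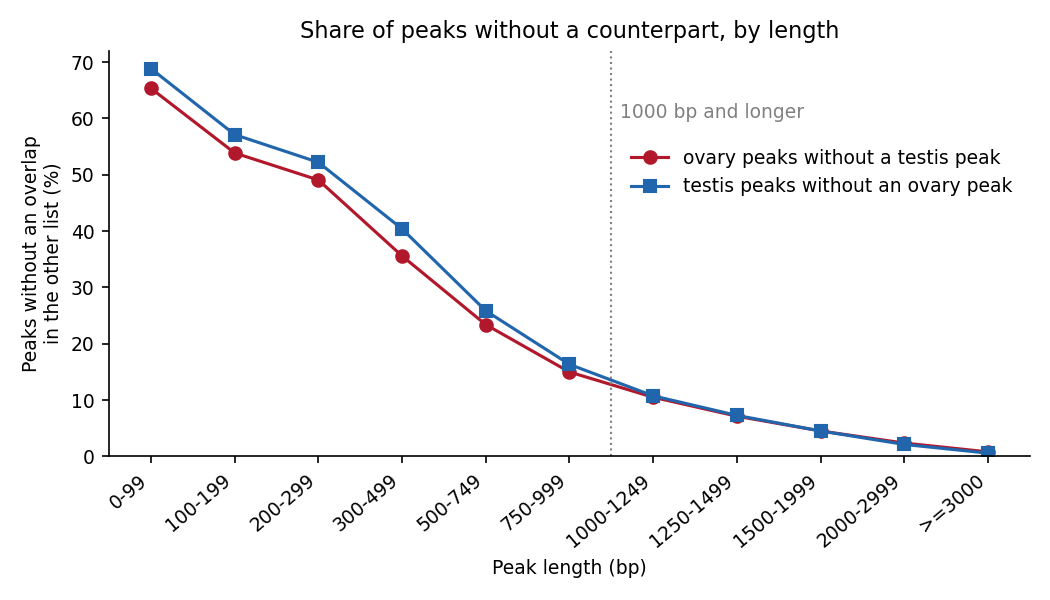
Share of peaks (%) that overlap no peak of the other list by 1 bp or more, by peak length (bp), for ovary peaks (red circles) and testis peaks (blue squares), 1 sample each, on the 1780 scaffolds that the lists share. The share fell from 65.3% to 0.795% for ovary peaks and from 68.8% to 0.574% for testis peaks between the shortest and the longest class, and the dotted line marks the minimum length of the regions described.

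The minimum length of 1000 bp cut through a smooth decline. Just inside it, 76 of the 620 ovary peaks that passed it by less than 10 bp had no testis peak, or 12.3%, and just outside it 76 of the 665 that were up to 10 bp too short, or 11.4%. The limit of 1 bp likewise parted near neighbors, as 17 ovary-only long peaks lay within 9 bp of a testis peak and 23 shared long peaks overlapped theirs by 9 bp or less. Most shared long peaks overlapped by far more than the rule asks. Testis peaks covered a median of 72.8% of their length (quartiles 50.1% and 91.8%), and 866 of the 35896 were covered over less than 10%.

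The ovary-only long peaks were short for long peaks. Their median length was 1223 bp (quartiles 1090 and 1465 bp), against 1462 bp (1185 and 1956 bp) for shared long peaks. The longest measured 4629 bp, against 6366 bp. Of the ovary-only long peaks, 53.8% were under 1.25 kb and 6.80% reached 2 kb, against 31.8% and 23.5% of the shared ones. Together the ovary-only long peaks covered 3362 kb and the shared ones 60303 kb. A longer peak has more bases that can meet a testis peak, so the 2 sets were also compared within classes of length.

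The score deposited with each ovary peak differed little between the sets. Its median was 0.921 (quartiles 0.824 and 1.08) in ovary-only long peaks and 0.941 (0.837 and 1.09) in shared long peaks, beside 0.971 for all deposited ovary peaks. Within the 4 length classes, in order of length, the medians of the ovary-only long peaks were 0.928, 0.908, 0.917 and 0.932, each under that of the shared long peaks of the same class, which were 0.940, 0.942, 0.938 and 0.944. A score over 2 was found in 48 ovary-only long peaks, or 1.93%, and in 1052 shared ones, or 2.93%. The meaning of the score is not given in the sources used here, so the sets were compared by it only within the ovary list. For some of the alternative settings given at the end, it also ranked peaks within the testis list. The quartiles of the 2 sets overlapped almost wholly.

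The 10 longest of the 2486 regions ran from 3281 to 4629 bp and lay on 10 different scaffolds. The longest lay on scaffold335.1 from 464808 to 469436, with a score of 0.798 and the nearest testis peak 554 bp away. The next 4 measured 4419 bp (scaffold152.1, 802908 to 807326), 4364 bp (scaffold91.1, 778991 to 783354), 4296 bp (scaffold154.1, 899113 to 903408) and 4207 bp (scaffold155.1, 773386 to 777592). The sixth, of 3577 bp on scaffold39.1 (3081882 to 3085458), was clearly shorter than these 5. The others were 3443 bp on scaffold166.1 (104027 to 107469), 3332 bp on scaffold12.1 (5689021 to 5692352), 3324 bp on scaffold174.1 (1320853 to 1324176) and 3281 bp on scaffold502.1 (94850 to 98130). None of the 10 scored high, with scores from 0.798 to 1.07, and 5 of them fell below the median score of all ovary peaks. Their nearest testis peaks lay 313 bp (scaffold154.1) to 3696 bp (scaffold91.1) away.

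The highest scores fell on other, shorter regions. The first, of 1281 bp on scaffold224.1 (493822 to 495102), scored 5.80, which was percentile 99.1 of the ovary list. It lay in a sparse stretch, where ovary peaks covered 2.92% and testis peaks 0.828% of the bases from 1 to 10 kb on both sides. The second, of 1406 bp on scaffold140.1 (561240 to 562645), scored 5.46 and was also in sparse surroundings, covered to 5.46% in ovary and 5.83% in testis. The third, of 1088 bp on scaffold53.1 (1553245 to 1554332), scored 4.95 and lay among many peaks, with 48.6% of its flanks covered in ovary and 30.5% in testis.

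Absence from the testis list did not mean that testis peaks were far away. The nearest testis peak lay at a median of 516.5 bp from an ovary-only long peak (quartiles 284 and 965.5 bp, range 0 to 22062 bp). For 48.9% of the regions (1216 of 2486) it was within 500 bp, for 76.3% within 1 kb and for 99.0% within 5 kb. On both sides, testis peaks lay within 1 kb for 683 regions, or 27.5%, and within 5 kb for 2233, or 89.8%. These distances are partly set by the rule, since the region itself holds no testis peak.

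Each region therefore sat in a gap of the testis list. The gap, from the testis peak on its left to the testis peak on its right, had a median length of 3630 bp (quartiles 2679 and 5386 bp, 2478 regions; 8 regions had no testis peak on one side). It held a median of 3 ovary peaks, the region included, which covered a median of 50.3% of it. Of 2377 such gaps, 2291 held 1 region, 75 held 2, 9 held 3, and 1 each held 4 and 6. The gaps that held a region were mostly of middling length. Of all testis gaps, a long ovary peak lay in 0.371% of those from 1 to 2 kb, 3.22% from 2 to 5 kb, 4.05% from 5 to 10 kb, 2.13% from 10 to 20 kb and 0.873% of those of 20 kb or more (9 of 1031). In the other direction, long testis peaks lay in 5.06% of ovary gaps from 5 to 10 kb and in 3.61% of those of 20 kb or more (62 of 1719). Testis gaps of 20 kb or more thus held a long ovary peak less often than those from 2 to 20 kb. They held one more often than those from 1 to 2 kb, but a gap that short has room for a long peak only if the peak fills most of it. The widest gap with a long ovary peak was the one around the highest scoring region, 65431 bp on scaffold224.1 (434466 to 499896), where 2 ovary peaks covered 2.42%. The next, 48025 bp on scaffold109.1 (822018 to 870042), held 22 ovary peaks that covered 31.3%, among them 6 of the regions.

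The surroundings of the ovary-only long peaks were covered more by ovary peaks than by testis peaks. From 1 to 10 kb on both sides, ovary peaks covered 35.3% of bases and testis peaks 31.5%, a difference of 3.75 percentage points, ovary minus testis. Around shared long peaks the shares were 37.7% and 36.9%, a difference of 0.774. Weighted to the same mix of lengths, shared long peaks had 37.8% in ovary and 37.1% in testis, a difference of 0.695. Both sets therefore lay in regions covered above the average of the lists, and the flanks of the ovary-only long peaks were lower than those of shared long peaks in both tissues, by more in testis.

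Single regions varied far more than the sets differed. The flank difference had a median of 3.14 percentage points over ovary-only long peaks, with quartiles of -3.38 and 10.3, and ovary was higher around 1537 of 2486, or 61.8%. Around shared long peaks the median was 0.644 (quartiles -5.21 and 6.71) and ovary was higher around 53.0% of 35844 that had such flanks. Among the 10 longest regions, ovary was higher in the flanks of 6, as on scaffold335.1 with 32.2% in ovary and 15.5% in testis, and testis was higher in those of 4, as on scaffold174.1 with 28.8% in ovary and 32.1% in testis. The sets parted most in one tail. A flank difference above 20 percentage points was found for 196 ovary-only long peaks, or 7.88%, and for 955 shared ones, or 2.66%. A difference below -20 was found for 46 ovary-only long peaks, or 1.85%, and for 620 shared ones, or 1.73%. Flanks of near neighbors overlap, so some bases were counted more than once.

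The choice of regions also bears on the nearer part of these flanks, since the gap in the testis list around a region often ran on past 1 kb, and testis peaks lay within 1 kb on both sides of 27.5% of the regions and within 5 kb on both sides of 89.8%. The flank difference was seen in each class of length and was smallest from 20 to 50 kb. In the 4 classes, in order of length, it was 3.42, 3.56, 4.58 and 4.98 percentage points for ovary-only long peaks and 0.596, 0.781, 0.762 and 1.02 for shared long peaks. By distance it was 3.68 from 1 to 5 kb (34.6% in ovary and 30.9% in testis), 3.80 from 5 to 10 kb (35.8% and 32.0%), 3.14 from 10 to 20 kb (34.2% and 31.1%) and 1.79 from 20 to 50 kb (31.9% and 30.1%). Around shared long peaks it was 0.482, 1.01, 0.682 and 0.154 over the same distances. In the nearest 1 kb, ovary peaks covered 23.5% and testis peaks 18.5% beside the ovary-only long peaks, against 26.5% and 38.8% beside shared long peaks. The values within 5 kb follow in part from the rule. To a smaller extent this holds farther out too, as 136 regions lay in testis gaps of at least 10 kb.

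**Figure D2:**
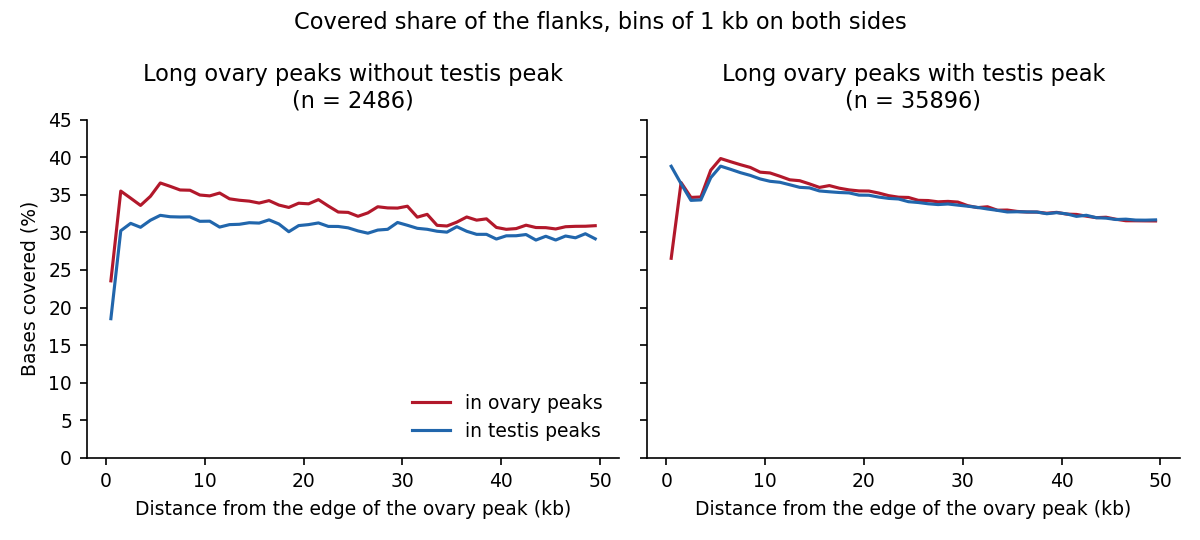
Share of bases covered by ovary peaks (red) and testis peaks (blue), in percent, in bins of 1 kb from the edge of the ovary peak outwards on both sides, for the 2486 ovary-only long peaks (left) and the 35896 shared long peaks (right), pooled over regions. Beside ovary-only long peaks the ovary line ran above the testis line out to 50 kb, with 35.3% against 31.5% from 1 to 10 kb, while beside shared long peaks the lines nearly met from the second bin on, with 37.7% against 36.9%.

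Testis peaks in these flanks were both fewer and shorter around ovary-only long peaks than around shared ones, and ovary peaks were nearly as many but shorter. From 1 to 10 kb ovary peaks numbered 6.25 per 10 kb around ovary-only long peaks and 6.30 around shared long peaks, with median lengths of 378 and 401 bp. Testis peaks numbered 5.10 per 10 kb around ovary-only long peaks and 5.62 around shared long peaks, with median lengths of 418 and 437 bp. The long testis peaks without an ovary peak, measured the same way, had 23.5% of their flanks covered in ovary and 31.6% in testis, a difference of -8.11 in the other direction. For long testis peaks with an ovary peak it was -0.241.

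The nearest long neighbor of an ovary-only long peak was most often a shared long peak, but it was ovary-only more often than the nearest neighbor of a shared long peak was. A long ovary peak was found within 10 kb of 2151 of the 2486, or 86.5%, and of 91.8% of shared long peaks. For 307 of the 2151, or 14.3%, the nearest such neighbor was itself ovary-only, against 1806 of 32965 shared long peaks, or 5.48%, and against the 6.48% of all long ovary peaks. Ovary-only long peaks made up 8.94% of the other long ovary peaks on the scaffold of an average ovary-only long peak and 6.33% on that of a shared one. The part of such scaffold differences in the neighbor shares was not tested. The nearest neighbor of an ovary-only long peak was thus ovary-only more often than the other long ovary peaks of its scaffold, and that of a shared long peak less often. Without scaffold109.1, which is described below, the shares of nearest neighbors were 13.4% and 5.45%. A neighbor in the same testis gap is ovary-only by the rule, so a part of the higher share is set by it.

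The difference between the 2 sets was greatest at short range and had not vanished at 100 to 200 kb. Of the long ovary peaks within 2 kb of an ovary-only long peak, 17.5% were themselves ovary-only (192 of 1096), against 5.28% within 2 kb of a shared long peak. The shares were 12.8% and 5.42% from 2 to 5 kb, 10.6% and 5.53% from 5 to 10 kb, 9.30% and 6.03% from 20 to 50 kb and 8.84% and 6.39% from 100 to 200 kb. The shares at 100 to 200 kb were close to 8.94% and 6.33%, those among the other long ovary peaks of the same scaffolds. At that range they were thus near the level of whole scaffolds. Long ovary peaks in the same testis gap are ovary-only together, so the shares at short range follow in part from the rule. Shorter ovary peaks also met no testis peak more often near ovary-only than near shared long peaks. Within 10 kb of an ovary-only long peak, 32.4% of ovary peaks from 300 bp to under 1 kb overlapped no testis peak, against 21.6% near a shared long peak and 27.7% of all ovary peaks of these lengths. Of those under 300 bp it was 55.5%, 46.1% and 56.1%. Near ovary-only long peaks the smallest peaks were therefore close to the level of the whole list, and near shared long peaks they were below it. An ovary peak that lies in the same testis gap as a region also meets no testis peak. The shares near ovary-only long peaks are thus partly set by the rule, and the size of that part was not tested.

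**Figure D3:**
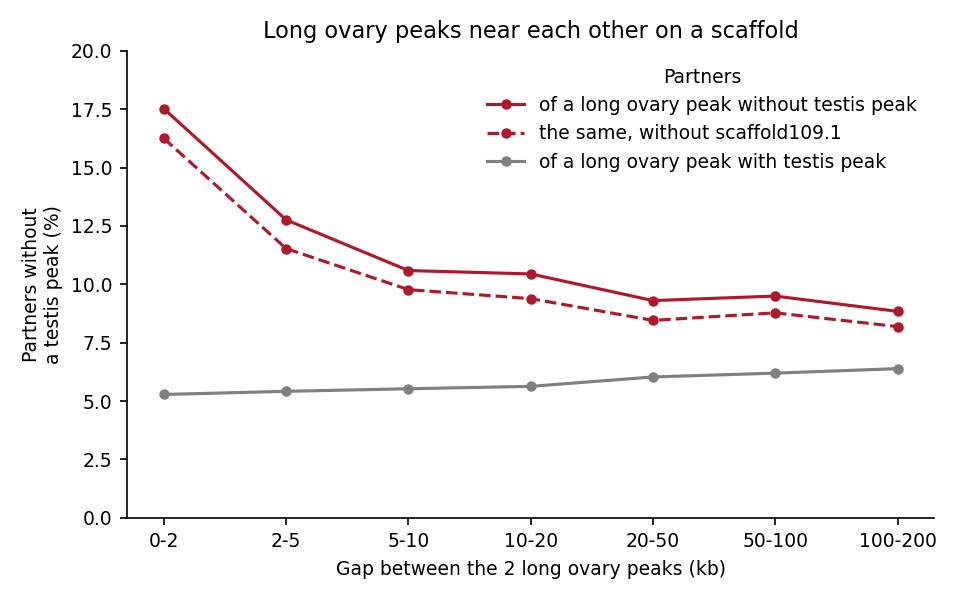
Share (%) of long ovary peaks that themselves overlap no testis peak, among partners of an ovary-only long peak (red, dashed without scaffold109.1) and of a shared long peak (gray), by the gap between both long ovary peaks (kb, unequal classes). The red line fell from 17.5% within 2 kb to 8.84% at 100 to 200 kb and the gray line climbed from 5.28% to 6.39%. The lines had not met at 200 kb, where they were near the shares over whole scaffolds, 8.94% and 6.33%. Partners in the same testis gap as an ovary-only long peak are ovary-only by the rule.

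Most of the regions were nevertheless single. Joined when no more than 10 kb apart, the 2486 fell into 2191 groups, of which 1948 held 1 region, 208 held 2, 27 held 3, 6 held 4 and 1 each held 8 and 9. The 243 groups of 2 or more held 538 regions. As runs of consecutive long ovary peaks with no shared one between them, there were 1886 runs of 1, 217 of 2, 34 of 3, 10 of 4, 3 of 5 and 1 of 9. The 2 largest groups lay on scaffold109.1, from 844080 to 893159, where all 9 long ovary peaks were ovary-only, and from 969684 to 1011508, where 8 of 11 were. In the first, ovary peaks covered 39.6% and testis peaks 6.35% of 49080 bp, and in the second 56.6% and 8.86% of 41825 bp. The third, the first in order of 6 groups of 4, lay on scaffold2.1 from 7629525 to 7643534, with 60.8% covered in ovary and 29.7% in testis. Groups begin and end at regions, which by the rule lie in ovary peaks and hold no testis peak. The high ovary and low testis shares of these groups are thus partly set by the rule.

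Scaffold109.1 stood out by its share. Of its 61 long ovary peaks 34 overlapped no testis peak, or 55.7%, the highest share of the 355 scaffolds with at least 20 long ovary peaks. From the start of the first group to the end of the second, 167.4 kb from 844080 to 1011508, 103 ovary peaks covered 43.3% and 38 testis peaks covered 8.68%, and 22 of 28 long ovary peaks were ovary-only. This stretch was picked by its regions, so its ovary share is high by choice, and its low testis share is partly set by that choice too. Of 3 long testis peaks in it, 0 lacked an ovary peak, beside 6.36% of all long testis peaks. So few peaks tell nothing about the stretch. In the 843.9 kb before it, testis peaks covered more than ovary peaks, 5.96% in ovary and 9.53% in testis, and in the 50 kb tile that began 100 kb before it the shares were 26.9% and 52.4%. In the 253.3 kb after it they were 35.7% and 23.5%, with 9 of 24 long ovary peaks ovary-only. The scaffold as a whole was covered to 16.9% in ovary and 12.2% in testis, so the difference belonged to parts of it. One such part lay past the stretch, in the 50 kb tile that began 350 kb after its start. That tile was covered to 35.2% in ovary and 4.49% in testis, and 6 of its 7 long ovary peaks were ovary-only. Without this scaffold, the flank difference of the ovary-only long peaks was 3.41 percentage points in place of 3.75.

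**Figure D4:**
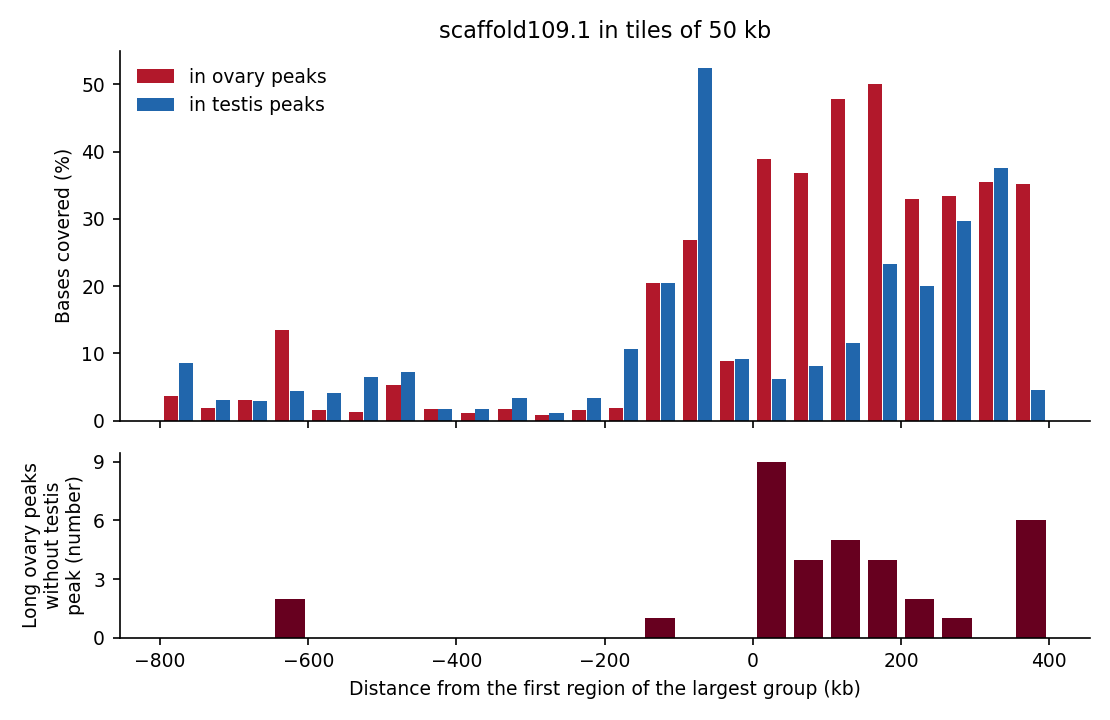
Covered share in percent of 50 kb tiles of scaffold109.1 in ovary (red) and testis (blue) peaks above, and the number of ovary-only long peaks starting in each tile below, by distance (kb) from the first region of the largest group. Over the 4 tiles from 0 to 200 kb ovary peaks covered 36.8% to 50.1% and testis peaks 6.23% to 23.3%, with 4 to 9 regions a tile, and the tile from -100 to -50 kb was covered to 26.9% in ovary and 52.4% in testis. The tile from 350 to 400 kb was covered to 35.2% in ovary and 4.49% in testis, with 6 regions. A region adds ovary coverage and no testis coverage to its tile.

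Tiles of 50 kb over all scaffolds gave the wider picture. Of 12596 tiles, 1957, or 15.5%, held at least 1 of the regions. Tiles without one were covered to 20.7% in ovary and 22.9% in testis, a difference of -2.27 percentage points. The difference was 3.33 in the 1585 tiles with 1 region, 7.04 in 299 tiles with 2, 13.1 in 57 tiles with 3 and 19.5 in 10 tiles with 4. A region adds ovary coverage and no testis coverage to its tile, so a part of this climb is set by the rule. The 10 tiles with the highest difference each held at least 1 region, and 3 of them lay on scaffold109.1. The first was on scaffold46.1 from 1600220 to 1650219, covered to 52.9% in ovary and 8.19% in testis, with 4 regions.

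Scaffolds differed in how many of the regions they held. The regions lay on 349 of 625 scaffolds with long ovary peaks, and 80 scaffolds with at least 10 of them held 1552, or 62.4%. These 80 were picked by their number of regions, which also depends on how many long ovary peaks a scaffold holds. The 62.4% is therefore no measure of concentration. Of the 355 scaffolds with at least 20 long ovary peaks, 48 held none, and the share of long ovary peaks that were ovary-only had a median of 5.93% (quartiles 2.63% and 8.96%). By number, the first were scaffold3.1 with 59 of 757 (7.79%), scaffold2.1 with 53 of 607 (8.73%) and scaffold4.1 with 44 of 515 (8.54%), which are also among the scaffolds with the most long ovary peaks. By share, scaffold109.1 was followed by scaffold185.1 with 14 of 39 (35.9%) and scaffold49.1 with 38 of 140 (27.1%). The mirror share, of long testis peaks without an ovary peak, was 21.2%, 20.9% and 14.2% on these 3 scaffolds, beside 6.36% overall. It was 3.85%, 0% and 10.3% on the next 3 by share, scaffold255.1, scaffold477.1 and scaffold310.1, and Spearman's rho between the 2 shares was 0.179 over the 355 scaffolds. On scaffold3.1 it was low, with 3 of 786, or 0.382%. Few regions lay at scaffold ends, with 28 of 2486 (1.13%) within 10 kb of the first or last peak, against 673 shared long peaks (1.87%). This contrast is partly set by the rule. On a short scaffold every peak lies near an end, and scaffolds without a testis peak were left out. Scaffolds with at least 50 peaks in both lists held 2478 of the 2486 regions and 35552 of the 35896 shared long peaks.

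Some large scaffolds held almost none of the regions, which was noticed after the values had been seen. Of 47 scaffolds with at least 200 long ovary peaks, 7 had shares under 1% and together 12 regions among 2237 long ovary peaks. The other 40 lay between 2.46% and 10.7%, with 959 of 12769. Scaffold18.1, the second richest in long ovary peaks, held 4 of 701. Of its 840 long testis peaks 57 lacked an ovary peak, or 6.79%, close to the 6.36% of all long testis peaks. The median of this testis share was 5.75% on the 7 scaffolds and 6.52% on the other 40. The 2 sets of scaffolds also differed in the lists as a whole. The ratio of ovary to testis peak numbers had a median of 0.816 (0.798 to 1.08) on the 7 and 1.07 (0.933 to 1.45) on the other 40, with medians of 607 and 460 testis peaks per Mb and of 526 and 501 ovary peaks per Mb.

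**Figure D5:**
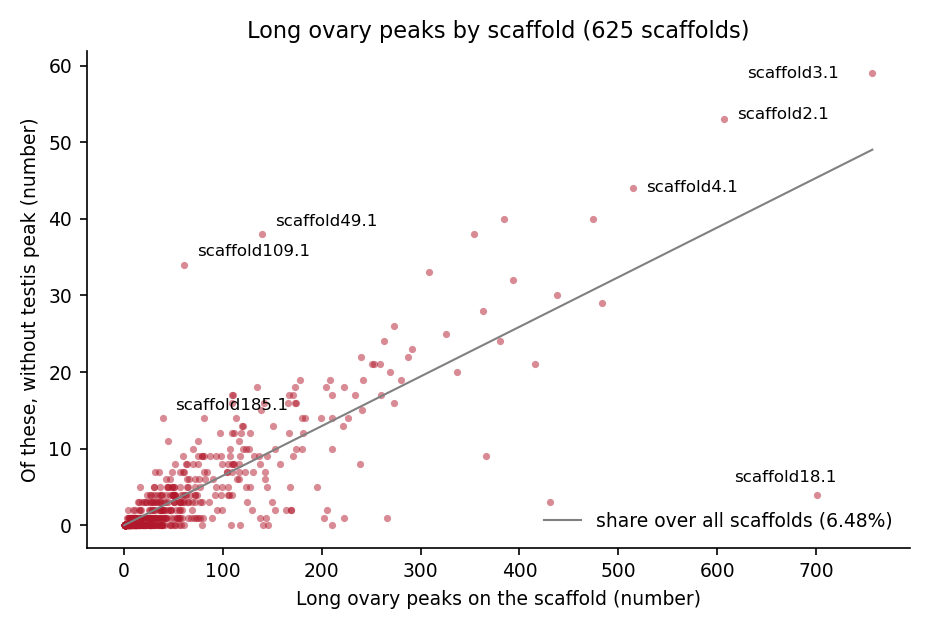
Number of ovary-only long peaks on each of 625 scaffolds against the number of all its long ovary peaks, with a line at the overall share of 6.48%. Scaffold109.1 (34 of 61), scaffold49.1 (38 of 140) and scaffold185.1 (14 of 39) stood far above the line, and scaffold18.1 (4 of 701) far below it.

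Over the 355 scaffolds the same relation was graded. Ranked by the ratio of ovary to testis peak numbers, the share of long ovary peaks that were ovary-only was 2.96% on the 89 scaffolds with the lowest ratios, 6.48% on the next 89, 7.54% on the 88 that followed and 8.31% on the 89 with the highest. Spearman's rho between this share and the ratio was 0.382 over 355 scaffolds. Both measures come from the same 2 libraries and share the testis peaks, so this describes the lists. The part of the peak density of whole scaffolds in the number of regions was not tested. The flank difference was therefore also taken scaffold by scaffold. On the 80 scaffolds with at least 10 regions, ovary was higher in the flanks of ovary-only long peaks on 62 and testis on 18, with a median difference of 3.63 percentage points (-3.70 to 27.6). Around shared long peaks of the same scaffolds the median was 1.79 and ovary was higher on 71. The 80 scaffolds were picked by their number of regions, so both counts describe a selected set. On 55 of the 80, the difference was higher around the ovary-only long peaks than around the shared ones of the same scaffold.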

How the data were processed

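Chromatin of 1 ovary sample and 1 testis sample was cross-linked, digested, sonicated and precipitated with antibody or IgG beads, according to the study's methods. The authors mapped filtered reads to a genome from NCBI and deposited 1 list of peaks per tissue, with scaffold, start, end, name and a score. MACS 1.4.2 is named in the submitters' processing notes. The aligner, build, threshold, use of the IgG sample and meaning of the deposited score were not given in the sources used here. A stretch with few reads, or with unmapped reads, has no peak, and the lists do not tell this from a lack of the mark. No read counts were used, so no interval for depth is given.

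Groups came from the tissue labels. Positions are counted from 1. A scaffold was taken to run from its first to its last peak, and flanks ended there. Flanks were pooled over bases of all regions of a set. Shares are percentages, and no test was run, with 1 sample per tissue. The regions, length classes and windows were chosen with earlier results of these data known. The regions named were the 10 longest, the 3 with the highest score, the 3 scaffolds with the most, the 3 with the highest share (at least 20 long ovary peaks), and the 3 largest groups joined within 10 kb. The scaffolds with shares under 1%, scaffold46.1, scaffold255.1, scaffold477.1, scaffold310.1 and the widest gaps were named after their values had been seen. Alternatives changed the minimum length, the score or length of the peaks used, the overlap, the scaffolds and the windows. The tools were pandas 2.3.3, numpy 2.4.6, matplotlib 3.10.9 and scipy 1.17.1 under Python 3.11.15, and the interval steps, tested on simulated data against a count base by base, gave 0 differences in 1000 intervals.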

Additional observations from a re-analysis of the deposited data

Results flagged for a closer look

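Of 624 scaffolds with ovary peaks and no testis peak, which the comparisons above leave out, 50 held long ovary peaks, 252 in all. They drew attention because the ovary list has a signal there and the testis list none. Their median length was 1449.5 bp and the longest measured 4853 bp, and the scaffold with the most was scaffold309.1 with 43. With them the number of long ovary peaks without a testis peak was 2738. The mirror case was larger, with 491 long testis peaks on the 974 scaffolds that had testis peaks and no ovary peak.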

How the results depend on the processing

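No setting reversed a direction. The share of nearest long neighbors that were ovary-only, and the flank difference, were higher for ovary-only than for shared long peaks in 13 of 13 settings each. In each setting the neighbor share follows in part from the rule. The flank difference does so too, mostly where the flanks take in the bases nearest the regions, as in nearly all settings. The counts of 13 of 13 are therefore partly set by the rule and are no independent check of either direction. The sizes moved with the settings, and the cause was not tested beyond what each setting does by construction.

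The values as reported were 2486 regions, 6.48% of long ovary peaks, a flank difference of 3.75 percentage points, 14.3% ovary-only nearest neighbors, a median length of 1223 bp, a median score of 0.921 and a median gap of 3630 bp. With a minimum length of 800 bp they were 4751 regions, 8.78%, 3.56, 17.9% and 1014 bp. With 1500 bp they were 574 regions, 3.27%, 4.69, 11.5% and 1779 bp. Keeping in each list the 50% of peaks that scored highest, they were 7441 regions, 44.7%, 4.52 and 55.3%, against 32.1% ovary-only neighbors of shared long peaks. This setting leaves out testis peaks, so fewer long ovary peaks can meet one. When only testis peaks of at least 300 bp counted they were 4570 regions, 11.9%, 2.99, 19.6% and a gap of 4875 bp. When no testis peak lay within 500 bp they were 1272 regions, 3.31% and 4.89. When testis peaks could cover up to 10% they were 8.73%, 3.40 and 16.4%. On all scaffolds they were 7.09%, 6.35, 21.8% and 1239 bp. The long ovary peaks that this setting adds lie on scaffolds without a testis peak. They and their neighbors are ovary-only by construction, and their flanks hold no testis peak. With the same smallest gap and shortest length in both lists (261 and 65 bp) the flank difference was 4.73 (1.77 around shared long peaks, against 0.774 as reported), the median length 1241 bp and the score 0.952. With the same covered bases, which leaves out testis peaks alone, those with the lowest scores, they were 9.18%, 5.86 (2.38 around shared long peaks) and 18.4%. The flank difference was 3.36 from 5 to 20 kb, 3.14 as a median over regions and 3.41 without scaffold109.1, a setting chosen after seeing the data.

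No paired analysis was possible because each tissue had a single sample. The unknown depth limits every value, since the lists do not tell a stretch without the mark from one with too few reads to call a peak.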
